A study of Rattus norvegicus with 65 samples.

Results

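The comparison described here set the livers of 3 rats dosed repeatedly with DEN against those of 3 untreated rats of the same experiment, 6 of the 65 arrays of the series. The 6 samples were chosen by their labels alone: the 3 arrays titled DEN long and the 3 control arrays of the genotoxic set, which is the set of rats given compounds that damage DNA. The whole series asked whether liver expression profiles separate carcinogens that damage DNA from those that do not. Each sample was total RNA from the liver of 1 male Sprague-Dawley rat 6 weeks old, on 1 Affymetrix array, so the p-values below measure the spread between rats.

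Rats of the repeated-dose group (DEN long) carry the label 72 h, and the protocol gives 3 administrations and an autopsy after 24 h. Rats of the single-dose group (DEN short, 2 rats, replicates 2 and 3) carry the label 3 h. The control rats are labelled untreated, with no time. The labels give no dose and do not spell out DEN; the design text names diethylnitrosamine among the compounds used. All rats, control rats included, had food and water freely under a 12/12 h light cycle. The 2 other repeated-dose genotoxic groups used below, 2-AAF long and 3MeDAB long, have 3 rats each with the label 72 h, and the same design text lists 2-acetylaminofluorene and 4-dimethylamino-3'-methyl azobenzene without pairing names to abbreviations. The authors excluded 1 failed array, and each sample mixes all the cell types of a liver.

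Diethylnitrosamine is a classical liver carcinogen. It is oxidised in hepatocytes, chiefly by the cytochrome P450 enzyme Cyp2e1, to a species that ethylates DNA bases. O6-alkylguanine is reversed by the repair protein Mgmt, which is used up in the reaction. Damaged DNA stabilises p53, whose targets stop the cell cycle or cause cell death, and at necrotizing doses dying hepatocytes are cleared by macrophages and replaced by division of the remaining ones.

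Values are log2 signals as the authors normalized them (RMA), with 1 probe set per gene. A difference of 1 is a 2-fold change. Differences are given ± SE from a limma fit to 41 arrays, with 3 rats a group except where stated, and "rose" and "fell" are used only for an adjusted p (Benjamini-Hochberg) under 0.05. Per-rat values are listed in the order of replicates 1, 2 and 3. The gene lists below were chosen with earlier results of these data known. Their shares, set beside those of all genes, are therefore descriptions and not independent tests. The mean level of a list is taken over all its members on the array, tested or not. Of 11007 genes tested, 1838 (16.7%) passed: 1143 (10.4%) rose and 695 (6.31%) fell in DEN long against control. The control rats are labelled untreated and carry no time. Effects of DEN, of the dosing procedure and of the time of autopsy therefore cannot be told apart in this comparison. The median difference over all tested genes was -0.00068. At least 1 log2 unit of change was seen for 280 of the genes that rose and 85 of those that fell, and at least 2 units for 35 and 21. The 3 DEN long rats lay outside the range of the 3 control rats for 4436 genes (40.3%), and 1810 genes (16.4%) met both criteria.

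In both groups, 1 array stood apart. DEN long rats 1 and 2 differed by an SD of 0.152 over genes, whereas rat 3 differed from them by 0.300 and 0.308. Control rats 2 and 3 differed by 0.165, and rat 1 differed from them by 0.286 and 0.280. The 64 pairs of arrays within groups of the series ranged from 0.147 to 0.470 with a median of 0.292, so these 4 larger values are not unusual for the series. Without DEN long 3, 444 genes fell, and without control 1 446 fell. Without both, 972 genes passed (677 rose, 295 fell). The excess of 3' over 5' probe signal, a sign of RNA degradation or short labelling, was 0.687 ± 0.162 (SD, n = 3) for GAPDH in DEN long and 0.510 ± 0.107 in control, and 3.56 ± 0.305 against 3.13 ± 0.241 for beta-actin; its part in the differences was not tested.

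The liver label was borne out by the hepatocyte markers. Of 18 tested, 0 rose and 1 fell (Apoa2, an apolipoprotein of high-density lipoprotein, by 0.74 ± 0.16), and the mean level of the list ran from 13.57 to 13.62 in the control rats and from 13.49 to 13.59 in the DEN long rats. Alb, serum albumin, read 14.78, 14.75 and 14.95 in control and 14.79, 14.78 and 14.74 in DEN long. The 2 groups overlapped for Alb. Cyp2e1, which activates DEN, read 13.58, 13.37 and 13.41 in control and 13.45, 13.49 and 13.60 in DEN long, with a difference of 0.06 ± 0.08 (adjusted p = 0.704).

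The 15 largest rises were led by Adam8, a cell surface metalloprotease of leukocytes, Mybl1, a Myb family transcription factor, Cdkn1a, Vxn and Lama5, a laminin chain. Adam8 read 5.26, 5.32 and 5.48 in the control rats and between 10.96 and 11.43 in the DEN long rats, 5.77 ± 0.21 higher (adjusted p = 3.02e-19). In DEN short it read 5.82 and 5.37, close to control. Vxn read 6.11, 6.02 and 6.30 in control, 8.19 and 8.27 in DEN short and 9.85, 9.76 and 9.79 in DEN long (3.66 ± 0.24). The 3 groups of Vxn did not overlap, with DEN long highest. Lama5 rose by 3.02 ± 0.20, Ces2c, a carboxylesterase, by 2.86 ± 0.25 and Fabp4, the fatty acid carrier of adipocytes and macrophages, by 2.44 ± 0.35. Rprm, a p53-regulated cell cycle gene, rose by 2.50 ± 0.59. Its 3 control values (4.47, 7.12 and 7.13) were far apart, and it did not pass without control 1 (adjusted p = 0.057).

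**Figure D1:**
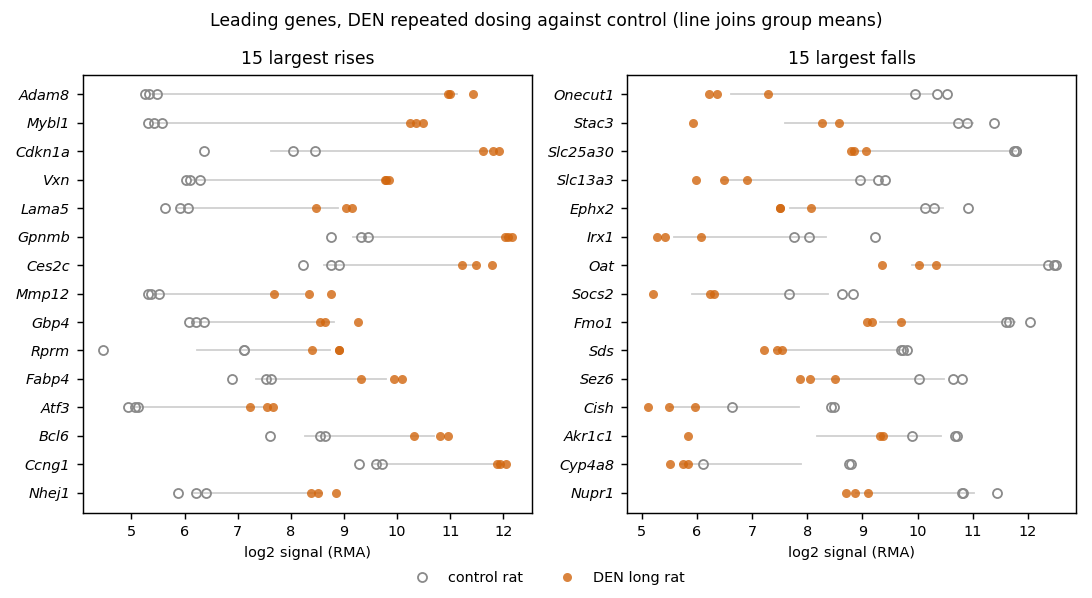
Log2 RMA signal of each rat for the 15 genes that rose most (left) and the 15 that fell most (right) in DEN long against control; open circles are control rats, filled circles DEN long rats, and the line joins the group means. Adam8 moves from at most 5.48 to at least 10.96, and control rat 1 sits apart from the other control rats for Cdkn1a, Rprm, Cish and Cyp4a8.

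Most tested targets of p53 rose. Of 30 genes listed, 23 were on the array and 22 were tested: 14 rose (63.6%, against 10.4% of all genes) and 0 fell, with a median difference of 0.79. For 17 of the 22, every DEN long rat lay above every control rat (21.0% of all tested genes did so). The median member stood 0.76, 0.76 and 0.69 above the control mean in the 3 DEN long rats. Without both arrays that stand apart, 10 rose with a median of 0.74.

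Cdkn1a, the cyclin-dependent kinase inhibitor p21, read 6.38, 8.04 and 8.46 in control and 11.61, 11.80 and 11.92 in DEN long (4.15 ± 0.43, adjusted p = 1.66e-08). Control rat 1 was well below the other control rats, and all 3 DEN long rats were far above every control rat. Ccng1, cyclin G1, rose by 2.42 ± 0.15. Mdm2, the ligase that degrades p53, read 8.44, 8.54 and 8.62 in control and 10.40, 10.31 and 10.78 in DEN long (1.96 ± 0.20); 2 of its 3 tested probe sets passed. Gdf15, a secreted stress factor, read 5.71, 5.92 and 6.06 in control and 7.81, 7.69 and 8.06 in DEN long (1.96 ± 0.41). The 2 groups of rats were apart for both genes. Members of lower rank also rose, among them Phlda3 (1.93 ± 0.16), an inhibitor of Akt signalling, Aen (1.58 ± 0.18), an apoptotic nuclease, and the death receptor Fas (1.48 ± 0.19). Not every target moved: Ddb2 (-0.03), Sesn1 (0.01) and Ppm1d (-0.08) did not pass.

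Against DEN short, 4 of the 22 p53 targets were higher and 5 lower in DEN long, or 1 and 2 without DEN short 3. In this comparison 30.3% of all genes passed (18.6% higher, 11.7% lower), and nothing about the list as a whole is read from these counts. Single members lay on both sides. Gdf15 was lower in DEN long than in DEN short (-1.70, adjusted p = 0.005), as were Aen (-1.03) and Phlda3 (-0.64). Fas read 7.05, 7.04 and 6.75 in control, 7.91 and 7.51 in DEN short and 8.57, 8.53 and 8.21 in DEN long, and was 0.73 higher in DEN long than in DEN short (adjusted p = 0.0086). For Cdkn1a the difference from DEN short was 0.04 (adjusted p = 0.96).

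Among DNA repair genes, 33 were tested, 7 rose (21.2%, against 10.4% of all genes) and 1 fell, and the median difference was 0.05, so that most of the list did not pass. Mgmt, which removes alkyl groups from guanine, read 9.47, 9.01 and 9.04 in control, 9.16 and 8.98 in DEN short and 11.14, 11.29 and 11.61 in DEN long. It was 2.17 ± 0.13 above control (adjusted p = 1.19e-13) and 2.27 above DEN short (adjusted p = 7e-13). The single-dose rats were at the level of the control rats, and all 3 repeated-dose rats were far above it. Nhej1, a factor of double-strand break end joining that is outside the list, followed the same order. It read 6.22, 5.87 and 6.41 in control, 6.65 and 6.26 in DEN short and 8.51, 8.38 and 8.86 in DEN long (2.41 ± 0.15). Smaller rises were those of Rad18 (0.91 ± 0.20), which acts at stalled replication forks, the replication ligase Lig1 (0.68 ± 0.13) and Xrcc1 (0.62 ± 0.12), the scaffold of single-strand break repair. Ung, a uracil glycosylase, fell by 0.59 ± 0.12. The DEN long level of Mgmt was not the highest of the series: it differed by -0.95 from 2-AAF long, where 31.1% of all genes passed, and by -0.68 from 3MeDAB long, where 49.3% did (adjusted p = 1.3e-06 and 7.4e-05).

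Genes of DNA replication and mitosis differ in the sequences of their promoters, which are shown here because both lists are described rat by rat below. Promoters of replication genes are known for E2F sites, and those of mitotic genes for CCAAT boxes and the cell cycle homology region (CHR). The 250 bases before the start of 4 members are given 5′ to 3′ from RefSeq, build GRCr8, all on the minus strand: Mcm6 at chr13:42404353-42404602 and Tyms at chr9:120776084-120776333 for replication, Top2a at chr10:84473094-84473343 and Mki67 at chr1:199952594-199952843 for mitosis. Capitals mark E2F-like letters in the first pair and CHR-like letters and CCAAT in the second, on either strand.
Mcm6: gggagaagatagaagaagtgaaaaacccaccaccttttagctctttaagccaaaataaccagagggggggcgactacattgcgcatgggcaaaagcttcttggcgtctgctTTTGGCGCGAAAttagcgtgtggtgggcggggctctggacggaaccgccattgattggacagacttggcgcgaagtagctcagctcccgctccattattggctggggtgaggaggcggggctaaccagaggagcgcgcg
Tyms: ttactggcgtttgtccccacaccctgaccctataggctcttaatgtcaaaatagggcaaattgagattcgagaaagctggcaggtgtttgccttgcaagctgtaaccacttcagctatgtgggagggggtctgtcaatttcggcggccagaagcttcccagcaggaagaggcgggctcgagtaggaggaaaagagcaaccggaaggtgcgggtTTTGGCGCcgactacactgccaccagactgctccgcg
Top2a: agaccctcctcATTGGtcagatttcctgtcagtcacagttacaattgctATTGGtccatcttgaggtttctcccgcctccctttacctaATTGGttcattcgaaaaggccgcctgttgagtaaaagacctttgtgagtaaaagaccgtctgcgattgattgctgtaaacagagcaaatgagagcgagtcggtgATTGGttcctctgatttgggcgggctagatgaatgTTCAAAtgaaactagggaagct
Mki67: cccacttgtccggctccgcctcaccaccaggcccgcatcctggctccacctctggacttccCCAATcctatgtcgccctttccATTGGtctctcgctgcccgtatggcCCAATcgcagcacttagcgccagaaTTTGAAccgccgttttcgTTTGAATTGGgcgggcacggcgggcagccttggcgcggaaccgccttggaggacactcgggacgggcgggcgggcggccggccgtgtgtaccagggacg

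The E2F-like search took TTTCGCGC, TTTGGCGC, TTTCCCGC and TTTGCCGC, the CHR-like search TTTGAA and TTTAAA, each on both strands and in the 300 bases from 250 before to 50 after the start, where matches may overlap. E2F-like letters were in 15 of 31 replication promoters found in the table (48.4%), in 2 of 32 mitotic ones (6.25%) and in 618 of all 27457 promoters (2.25%). CHR-like letters were in 29 of 32 mitotic promoters (90.6%), 6 of 31 replication promoters (19.4%) and 27.9% of all promoters. CCAAT was in 26 of 32 mitotic promoters (81.2%), 19 of 31 replication promoters (61.3%) and 37.7% of all, and CCAAT with CHR-like letters in 23 of 32 (71.9%), 1 of 31 (3.23%) and 11.1%. A match describes the letters and is no site.

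Replication genes were higher in all 3 DEN long rats. Of 31 tested, 19 rose (61.3%, against 10.4% of all genes) and 0 fell, with a median of 0.49, and for 25 every DEN long rat was above every control rat, as for 21.0% of all genes. Mcm6, a subunit of the replicative helicase, read 6.58, 6.61 and 6.46 in control, 6.75 and 6.18 in DEN short and 8.44, 7.82 and 8.68 in DEN long (1.77 ± 0.20). Tyms, which makes thymidylate, read 5.48, 5.55 and 5.89 in control and 6.70, 6.79 and 7.55 in DEN long (1.38 ± 0.18). For both genes the lowest DEN long rat was above the highest control rat. Ccne2, cyclin E2, rose by 1.28 ± 0.20 and Cdt1, which loads the helicase, by 1.21 ± 0.17. The median member stood 0.53, 0.35 and 0.74 above control in the 3 rats. Without DEN long 3, 12 rose (median 0.44), and 11 without both arrays that stand apart (median 0.42).

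The number of mitotic genes (the mitosis list) that rose depended on single rats and on how the spread was estimated. Of 37 tested, 21 rose (56.8%, against 10.4% of all genes) and 0 fell, with a median of 0.71, and for 27 every DEN long rat was above every control rat, as for 21.0% of all genes. The median member stood 0.45, 0.28 and 1.44 above control in DEN long rats 1, 2 and 3, and -0.12, 0.08 and 0.02 from it in the control rats. Without DEN long 3, 4 rose (median 0.35), without control 1 9 rose, and without both 1 rose. With the spread estimated in the compared groups alone 7 rose. The stricter filter on low values left 12 members to test, of which 5 rose. Ccna2, cyclin A2, read 6.50, 7.07 and 6.56 in control, 6.89 and 6.71 in DEN short and 7.76, 7.38 and 8.98 in DEN long (1.33 ± 0.33, adjusted p = 0.00469), and did not pass without DEN long 3 (adjusted p = 0.0888). Mki67, the proliferation antigen Ki-67, read 6.59, 6.86 and 6.69 in control and 7.75, 7.36 and 8.74 in DEN long (1.23 ± 0.34). Rat 3 was the highest of the DEN long rats for both, and the groups did not overlap. Without rat 3 the adjusted p was 0.133 for Mki67 and 0.093 for Top2a, the mitotic topoisomerase, which rose by 1.10 ± 0.28. Spc25, a kinetochore protein, rose by 1.23 ± 0.28. Bub1b, a spindle checkpoint kinase, read 5.14, 5.37 and 5.59 in control and 6.07, 5.74 and 6.25 in DEN long. It rose by 0.65 ± 0.12 and passed with each rat left out in turn and with both arrays left out (it was chosen for this after its values were seen). Its values are low: every control rat and DEN long 2 lay below the filter of log2 6.03.

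**Figure D2:**
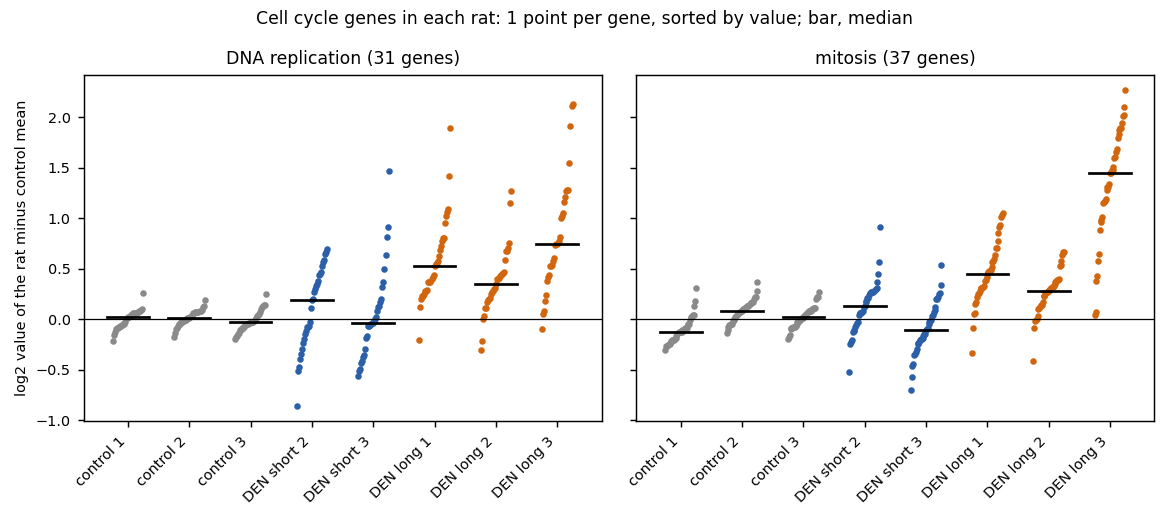
Each point is 1 tested gene in 1 rat, as the log2 value minus the control mean, for replication and mitotic genes in the 3 control, 2 DEN short and 3 DEN long rats; bars are medians. In DEN long rat 3 the median mitotic gene is 1.44 above the control mean, against 0.45 and 0.28 in rats 1 and 2, while replication genes stand at 0.53, 0.35 and 0.74.

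Regulators of entry into the cell cycle rose in 6 of 18 tested members (33.3%, against 10.4% of all genes) and fell in 0. Ccnd1, cyclin D1, read 9.35, 9.39 and 9.54 in control and 11.04, 10.96 and 11.32 in DEN long (1.68 ± 0.27), and all 3 of its tested probe sets passed. Cdkn1c, the inhibitor p57, rose by 1.46 ± 0.22 and the immediate early gene Fos by 1.93 ± 0.35. Cyclin D1 and the inhibitors Cdkn1a and Cdkn1c were thus higher in the same livers. Myc read 6.84, 8.59 and 8.39 in control and 9.07, 8.97 and 8.84 in DEN long (adjusted p = 0.258). All 3 DEN long rats were above the control rats for Myc, but control rat 1 was far below the other control rats.

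Most tested macrophage markers rose. Of 22 markers tested, 14 rose (63.6%, against 10.4% of all genes) and 1 fell, with a median of 0.68, and the mean level of the list ran from 9.37 to 9.56 in control and from 10.07 to 10.20 in DEN long. In bulk liver, more cells of a type and more RNA per cell cannot be told apart. Gpnmb, a glycoprotein of lipid-laden and phagocytosing macrophages, read 8.76, 9.31 and 9.46 in control, 7.95 and 7.34 in DEN short and 12.15, 12.03 and 12.09 in DEN long (2.91 ± 0.33). Lgals3, galectin-3, read 9.62, 9.99 and 10.22 in control and 12.03, 11.86 and 12.13 in DEN long (2.06 ± 0.18). The DEN long rats were close to each other for both genes and well above control. Fcer1g, an adaptor of Fc receptors, rose by 1.27 ± 0.22, and Tyrobp, an adaptor of myeloid receptors, by 1.22 ± 0.16. The lysosomal marker Cd68 (1.11 ± 0.18) and the scavenger receptor Cd163, which marks resident macrophages in rat tissues (1.08 ± 0.14), rose too.

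Of the 22 markers, 7 did not pass. Among them, Clec4f, a lectin of Kupffer cells, the macrophages resident in the liver, read 12.02, 12.10 and 12.20 in control and 12.37, 12.27 and 12.58 in DEN long (0.30 ± 0.17, adjusted p = 0.258). Csf1r, the receptor for the macrophage growth factor, and Adgre1, a surface receptor of mature macrophages, differed by 0.24 ± 0.18 and 0.52 ± 0.26 (adjusted p = 0.405 and 0.19). For Clec4f all DEN long rats were above all control rats by a small margin. Cd14, the co-receptor for bacterial lipopolysaccharide, went the other way. It read 10.83, 10.93 and 10.97 in control, 10.79 and 11.13 in DEN short and 8.64, 8.64 and 9.37 in DEN long, and fell by 2.03 ± 0.24 (adjusted p = 2.72e-07).

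Chemokines rose in 6 of 23 tested members (26.1%, against 10.4% of all genes) and fell in 2 (8.7%, against 6.31%). Ccl2, which attracts monocytes, read 5.86, 5.77 and 5.48 in control, 5.82 and 5.44 in DEN short and 7.68, 7.85 and 7.24 in DEN long (1.88 ± 0.21). All 3 DEN long rats were at least 1 unit above the other rats. Cxcl10, which attracts activated T cells, rose by 1.24 ± 0.27. Cxcl13, which attracts B cells, fell by 1.35 ± 0.31, and Cxcl12, which retains leukocytes in tissue, by 0.61 ± 0.16 with 3 of 3 probe sets lower. Interferon response genes rose in 7 of 25 tested members (28.0%) and fell in 0 (median 0.34); 4 passed without DEN long 1, without DEN long 3 or without control 1. Tap1, a peptide transporter of antigen presentation, rose by 1.02 ± 0.19 and the ubiquitin-like Isg15 by 1.00 ± 0.22. Outside that list, the guanylate-binding protein Gbp4 read 6.09, 6.21 and 6.37 in control and 6.09 and 6.11 in DEN short. In DEN long it read 8.55, 8.64 and 9.26 (2.59 ± 0.27).

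Of 11 tested markers of T and NK cells, 3 rose (27.3%, against 10.4% of all genes): the kinase Lck (0.61 ± 0.11), the T cell receptor chain Cd3g (0.60 ± 0.14) and the co-receptor Cd8a (0.60 ± 0.15). The mean level of the 17 members on the array, 6 of which were below the filter and not tested, moved from 5.81 to 5.86 in control to 6.05 to 6.07 in DEN long. These levels lie near the filter of log2 6.03. Of 15 endothelial markers 0 passed, with levels of 8.41 to 8.71 in control and 8.48 to 8.74 in DEN long. Of 6 markers of cholangiocytes, 2 of neutrophils and 6 of erythroid cells, 0 passed. Of 8 pancreatic genes 2 were tested and both fell. Cela1, an elastase, read 11.17, 11.33 and 11.30 in control and 8.97, 9.16 and 9.57 in DEN long (-2.03 ± 0.20), and Cpb1, a carboxypeptidase, fell by 1.13 ± 0.30.

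**Figure D3:**
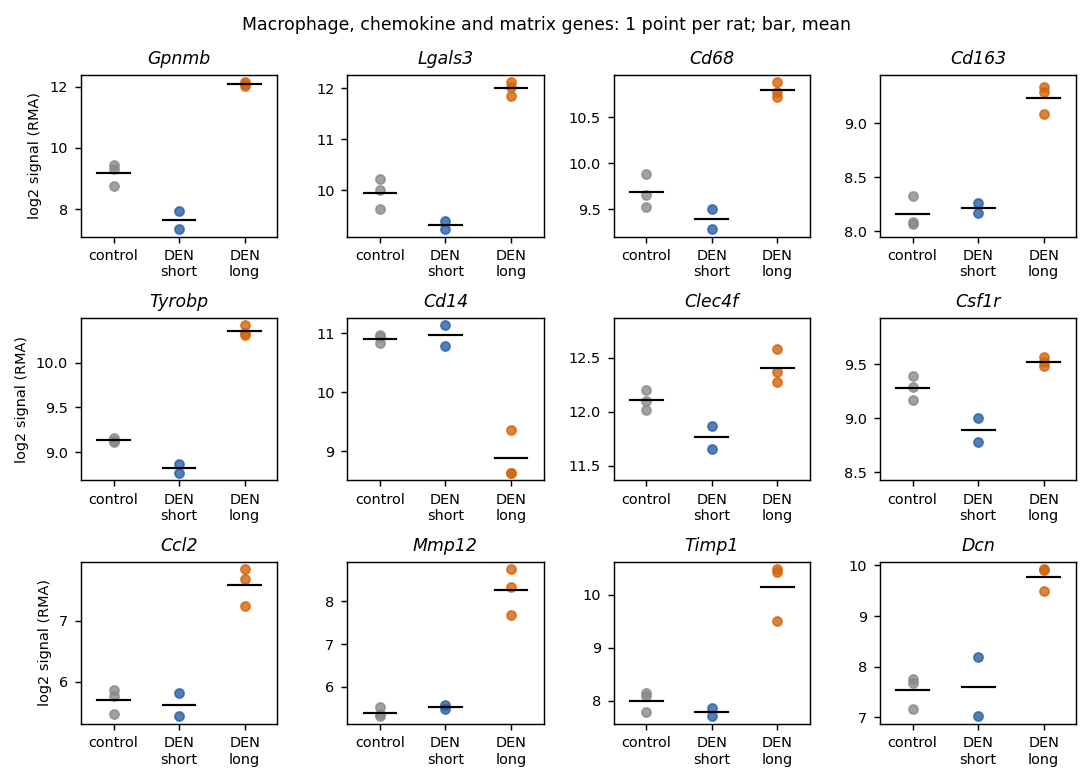
Log2 RMA signal of 12 macrophage, chemokine and matrix genes, with 1 point per rat and a bar at the mean for 3 control, 2 DEN short and 3 DEN long rats; each panel has its own axis. Gpnmb, Lgals3, Ccl2, Mmp12, Timp1 and Dcn are highest in DEN long, Cd14 is lowest there at 8.64 to 9.37, and Clec4f and Csf1r did not pass.

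Matrix and remodelling genes rose in 12 of 32 tested members (37.5%, against 10.4% of all genes) and fell in 0 (median 0.36). Those that rose were the proteases Mmp12, Mmp2, Adam8 and Adamts1, the inhibitors Timp1 and Timp2, the collagens Col5a2 and Col12a1, and Dcn, Loxl1, Tgfb1 and Ccn1 (Loxl1 not without DEN long 1 or control 1, adjusted p = 0.114 and 0.056). Mmp12, macrophage metalloelastase, read 5.32, 5.37 and 5.53 in control, 5.57 and 5.49 in DEN short and 8.75, 8.33 and 7.69 in DEN long (2.85 ± 0.17). Timp1, an inhibitor of metalloproteases, read 8.14, 8.09 and 7.78 in control and 10.49, 10.43 and 9.50 in DEN long (2.14 ± 0.35). Rat 3 had the lowest DEN long value for both, still above every control rat. Dcn, decorin, rose by 2.25 ± 0.43 and the matricellular Ccn1 by 1.97 ± 0.35. Of the main fibrillar collagens of scar tissue, Col1a1 read 7.95, 7.95 and 8.11 in control and 8.42, 8.71 and 7.55 in DEN long (0.23 ± 0.19, adjusted p = 0.492); rats 1 and 2 were above and rat 3 below the control rats, and without rat 3 the difference was 0.56 (adjusted p = 0.0283). Col3a1 differed by -0.03 ± 0.11.

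Markers of stellate cells and fibroblasts rose in 6 of 16 tested members (37.5%, against 10.4% of all genes), and the mean level of the list moved from 7.82 to 7.87 in control to 8.21 to 8.35 in DEN long. The contractile genes Tagln (1.41 ± 0.27), Des (0.92 ± 0.12) and Acta2 (0.80 ± 0.11) and the pericyte gene Rgs5 (1.65 ± 0.31) rose. Tagln and Acta2 are also counted among the genes of the cytoskeleton below. Dcn, another member that rose, is also counted among the matrix genes above. Lrat, which stores retinol in quiescent stellate cells, differed by -0.26 ± 0.22 (adjusted p = 0.502). Genes of the cytoskeleton rose in 20 of 28 tested members (71.4%) and fell in 0 (median 0.70), and the median member was 0.71, 0.74 and 0.65 above control in the 3 DEN long rats. S100a4, a calcium-binding protein of motile cells, read 7.14, 7.57 and 6.99 in control, 7.08 and 6.79 in DEN short and 9.43, 9.85 and 9.47 in DEN long (2.35 ± 0.21). Tubb6, a tubulin, read 6.88, 7.29 and 7.20 in control, 9.17 and 8.95 in DEN short and 9.20, 9.23 and 9.75 in DEN long (2.27 ± 0.20). The single-dose rats thus resembled control for S100a4 and were near DEN long for Tubb6. Anxa2, a membrane-binding annexin, rose by 1.55 ± 0.16 and S100a6 by 1.74 ± 0.34.

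Hepatocyte transcription factors fell in 8 of 21 tested members (38.1%, against 6.31% of all genes) and rose in 1 (median -0.29); 5 fell without control 3. Onecut1, HNF6, read 9.95, 10.54 and 10.35 in control, 11.09 and 11.23 in DEN short and 7.29, 6.36 and 6.22 in DEN long (-3.66 ± 0.76, adjusted p = 0.000725), and both of its tested probe sets fell. Cebpa, a factor of hepatocyte differentiation and quiescence, read 10.94, 10.80 and 10.98 in control and 10.00, 10.15 and 9.78 in DEN long (-0.93 ± 0.18), with 5 of 5 probe sets lower. Neither gene overlapped between groups. The bile acid receptor Nr1h4 fell by 0.84 ± 0.17. Foxa3 fell by 1.23 ± 0.36 and Foxa2 by 1.02 ± 0.29; Foxa3 did not pass without DEN long 3 or control 3 (adjusted p = 0.0573 and 0.0592), and Foxa2 did not pass without control 2 or 3 (adjusted p = 0.084 for each). Tbx3 fell by 1.40 ± 0.35, but not without control 1 (adjusted p = 0.073). Cebpd, a factor of inflammation, rose by 0.96 ± 0.23. Hnf4a, the central factor of hepatocyte identity, read 12.26, 12.17 and 12.24 in control and 12.30, 12.30 and 12.18 in DEN long (0.04 ± 0.11, adjusted p = 0.866); 2 of its 3 probe sets were lower and the one used was not.

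Male liver expresses a set of genes that depend on pulses of growth hormone through STAT5. The list used here is wider. It also holds Cyp2c12 and Cux2, which are genes of female liver, and the regulators Onecut1 and Bcl6. Onecut1, which fell, is counted both in this list and among the hepatocyte transcription factors. Of 21 tested, 8 fell (38.1%, against 6.31% of all genes) and 1 rose (median -0.35), and the median member differed by -0.30, -0.39 and -0.40 from control in the 3 DEN long rats. Socs2 and Cish are feedback inhibitors induced by STAT5. Neither growth hormone nor the activity of STAT5 was measured here. Socs2 is a member of the list and Cish is outside it. Socs2 read 7.67, 8.83 and 8.62 in control and 6.31, 6.23 and 5.20 in DEN long (-2.46 ± 0.57). Cish read 6.63, 8.43 and 8.49 in control, 8.06 and 8.03 in DEN short and 5.49, 5.10 and 5.96 in DEN long (-2.33 ± 0.43), and 1 of its 2 tested probe sets fell. Control rat 1 was the lowest control rat for both and still above the DEN long rats. Ghr, the growth hormone receptor, read 12.28, 12.34 and 12.31 in control and 11.54, 11.55 and 11.39 in DEN long (-0.82 ± 0.16). Cyp2c11, a male-specific steroid hydroxylase, fell by 0.92 ± 0.13 and Stac3 by 3.41 ± 0.71. Bcl6, a repressor that opposes STAT5, rose by 2.42 ± 0.73, from 7.61, 8.65 and 8.55 to 10.81, 10.96 and 10.31. The rats did not overlap, but the call was lost without DEN long 1, DEN long 2 or control 1 (adjusted p = 0.057, 0.0655 and 0.096). Obp3 fell by 1.95 ± 0.55 and did not pass without DEN long 1 (adjusted p = 0.0543).

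**Figure D4:**
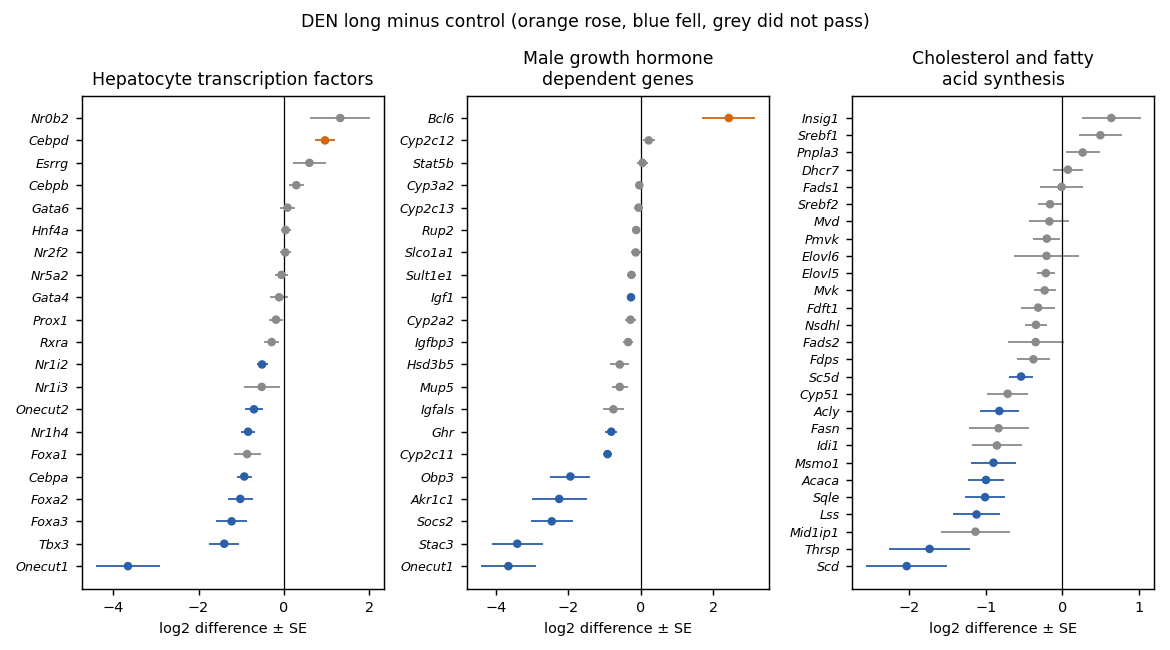
Log2 difference ± SE of DEN long from control (3 rats each) for every tested hepatocyte transcription factor, male growth hormone dependent gene and gene of cholesterol and fatty acid synthesis; orange rose, blue fell, grey did not pass. Onecut1 is lowest at -3.66, Bcl6 and Cebpd are the members that rose, and Hnf4a lies at 0.04.

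Genes of oxidation by cytochromes P450 fell in 7 of 37 tested members (18.9%, against 6.31% of all genes) and rose in 1, with a median of -0.05. The count was 4 without control 1 or control 2. Cyp1a2, which oxidises aromatic amines, read 12.74, 12.56 and 12.65 in control, 12.58 and 12.67 in DEN short and 11.57, 11.63 and 11.29 in DEN long (-1.15 ± 0.14). Cyp2j3, an epoxygenase, fell by 1.19 ± 0.19. Among leading falls outside the list were Fmo1, a flavin monooxygenase (-2.45 ± 0.27), and Ephx2, the soluble epoxide hydrolase (-2.76 ± 0.57). Cyp1a1 read 5.75, 5.38 and 5.72 in control and 5.42, 6.03 and 5.55 in DEN long, with overlap. Cyp4a8 fell by 2.18 ± 0.75, but control rat 1 (6.10) was near the DEN long rats while the other control rats read 8.75 and 8.79; it did not pass without DEN long 1, 2 or 3 (adjusted p = 0.0853, 0.0768 and 0.114) or control 2 or 3 (0.186 and 0.193).

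Of 31 glutathione genes and targets of NRF2, the sensor of oxidative stress, 5 rose (16.1%, against 10.4% of all genes) and 2 fell (6.45%, against 6.31%), with a median of 0.14. Without DEN long 3, 3 rose, and 9 rose with the spread estimated in the compared groups alone. None fell (0 of 31) without DEN long 2, DEN long 3 or any 1 of the control rats, so the falls are at the share of all genes and are not read as a result. Hmox1, heme oxygenase 1, lay at or below 9.44 in the control rats and between 11.20 and 11.31 in the DEN long rats (2.00 ± 0.40). Srxn1, sulfiredoxin, read 8.58, 8.88 and 8.79 in control, 11.63 and 11.73 in DEN short and 10.01, 10.00 and 10.17 in DEN long. It was 1.31 ± 0.33 above control in DEN long and differed by -1.62 from DEN short (adjusted p = 0.0011). Nqo1, a widely used NRF2 target, differed by 0.15 ± 0.24 (adjusted p = 0.743). Fetal and preneoplastic marker genes rose in 7 of 23 tested members (30.4%) and fell in 0. Tubb6 and Anxa2, which rose, are counted in this list and above among the genes of the cytoskeleton. Afp, alpha-fetoprotein, read 8.37, 8.86 and 8.77 in control and 8.68, 8.61 and 8.97 in DEN long (0.08 ± 0.24), and Gstp1, the placental glutathione transferase that marks preneoplastic foci in rat liver, differed by 0.40 ± 0.30 (adjusted p = 0.415). Cd44, a hyaluronan receptor, rose by 0.97 ± 0.12.

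Genes of the urea cycle and amino acid breakdown fell in 7 of 33 tested members (21.2%, against 6.31% of all genes) and rose in 1 (median -0.19); 3 fell without DEN long 3. Oat, ornithine aminotransferase, read 12.51, 12.37 and 12.47 in control, 12.22 and 12.77 in DEN short and 10.34, 10.02 and 9.35 in DEN long (-2.55 ± 0.32). Sds, serine dehydratase, read 9.70, 9.74 and 9.81 in control, 11.04 and 11.75 in DEN short and 7.53, 7.45 and 7.22 in DEN long (-2.35 ± 0.63). The single-dose rats were above control and the repeated-dose rats below it for Sds. Cps1, the first enzyme of the urea cycle, differed by 0.09 ± 0.10 (adjusted p = 0.628).

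Cholesterol and fatty acid synthesis genes fell in 8 of 27 tested members (29.6%, against 6.31% of all genes) and rose in 0 (median -0.35). The median member differed by -0.34, -0.43 and -0.49 from control in the 3 DEN long rats, and the count was 3 without DEN long 3 or without control 1 and 1 without both. Sqle, squalene epoxidase, read 9.56, 9.15 and 9.10 in control and 8.52, 8.03 and 8.23 in DEN long (-1.01 ± 0.26). Acaca, acetyl-CoA carboxylase, read 10.34, 9.98 and 10.14 in control and 9.24, 9.42 and 8.81 in DEN long (adjusted p = 0.0032). Every DEN long rat was below every control rat for both. Scd, stearoyl-CoA desaturase, fell by 2.04 ± 0.53 with DEN long values of 10.51, 11.40 and 8.82, and did not pass without rat 3 (adjusted p = 0.106). Fatty acid oxidation genes fell in 4 of 25 tested members (16.0%), but in 0 without DEN long 2 and in up to 8 with another rat left out, so the count is not read as a result about the list. Cpt1a, the gate of mitochondrial fatty acid entry, read 12.61, 12.38 and 12.39 in control and 11.53, 11.42 and 12.35 in DEN long. Rat 3 was near the control rats, and the fall of 0.69 ± 0.17 did not pass without rat 2 (adjusted p = 0.0506).

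Transporters fell in 6 of 24 tested members (25%, against 6.31% of all genes) and rose in 1; 3 fell without DEN long 3, control 1 or control 2. Slc13a3, a dicarboxylate carrier, read 9.41, 8.95 and 9.29 in control, 9.06 and 8.81 in DEN short and 5.97, 6.48 and 6.92 in DEN long (-2.76 ± 0.25). Slc25a30, a mitochondrial carrier outside that list, read 11.79, 11.75 and 11.79 in control, 11.97 and 11.94 in DEN short and 8.85, 8.79 and 9.07 in DEN long (-2.87 ± 0.32). Both were at the control level after the single dose and low in all 3 repeated-dose rats. Of 13 tested members of the bile acid synthesis list, 2 fell (15.4%, against 6.31% of all genes) and 0 rose. Both were receptors that repress the pathway, Nr1h4, counted above among the hepatocyte transcription factors, and Fgfr4 (by 0.61). No enzyme of the list passed, and so small a count is not read as a result about the list.

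Of 23 genes of the integrated stress and unfolded protein responses, 2 rose (8.7%, against 10.4% of all genes) and 4 fell (17.4%, against 6.31%), with a median of -0.07. The number that fell was 7 with the spread estimated in the compared groups alone and 1 without both arrays that stand apart. Atf4, the central factor of the integrated stress response, read 12.01, 11.71 and 11.82 in control and 10.95, 10.98 and 11.12 in DEN long (-0.83 ± 0.14), and its target Chac1 fell by 1.63 ± 0.44. Sesn2, a target of p53 and Atf4, rose by 0.79. Atf3, a stress-induced transcription factor, read 5.13, 4.94 and 5.07 in control, 10.15 and 10.62 in DEN short and 7.24, 7.66 and 7.54 in DEN long. DEN long lay between the 2 other groups without overlap, 2.43 ± 0.45 above control and different from DEN short by -2.90 (adjusted p = 4.2e-05). Of 30 acute phase genes, 2 rose and 3 fell (16.7% in all, the same share as over all genes), and 1 rose with any 1 rat left out. The metallothionein Mt2A read 13.38, 13.15 and 13.19 in control and 10.98, 11.21 and 12.89 in DEN long (-1.55 ± 0.33); rat 3 was close to the control rats and rats 1 and 2 far below. Cryab, a small heat shock protein, rose by 1.52 ± 0.21.

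Clock genes set single rats apart within groups. Dbp, a clock output factor, read 10.24, 6.19 and 5.99 in control, 8.80 and 5.55 in DEN short and 6.57, 6.29 and 6.74 in DEN long. Bmal1, the activator of the clock, which peaks opposite to Dbp, read 5.91, 8.02 and 8.02 in control, 5.45 and 7.68 in DEN short and 7.88, 7.58 and 7.35 in DEN long. Control 1 and DEN short 2 were thus high for Dbp and low for Bmal1, and the other 6 rats were the reverse. Neither gene passed (-0.94 ± 0.80 and 0.29 ± 0.53; adjusted p = 0.483 and 0.78). Of 16 tested clock genes 2 fell (12.5%, against 6.31% of all genes) and 0 rose. Without both arrays that stand apart 1 fell, and so small a count is not read as a result about the list. Nr1d1, a clock repressor, read 9.13, 7.48 and 7.43 in control and 6.14, 6.25 and 5.81 in DEN long (-1.95 ± 0.36). Nr1d2 fell too (-0.96 ± 0.24), but did not pass without control 1 (adjusted p = 0.0835). Control 1 is also the control rat that stood apart for Cdkn1a, Socs2, Cish and Myc above. The hour of autopsy is not given in the labels, and the part of the clock in these differences was not tested.

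**Figure D5:**
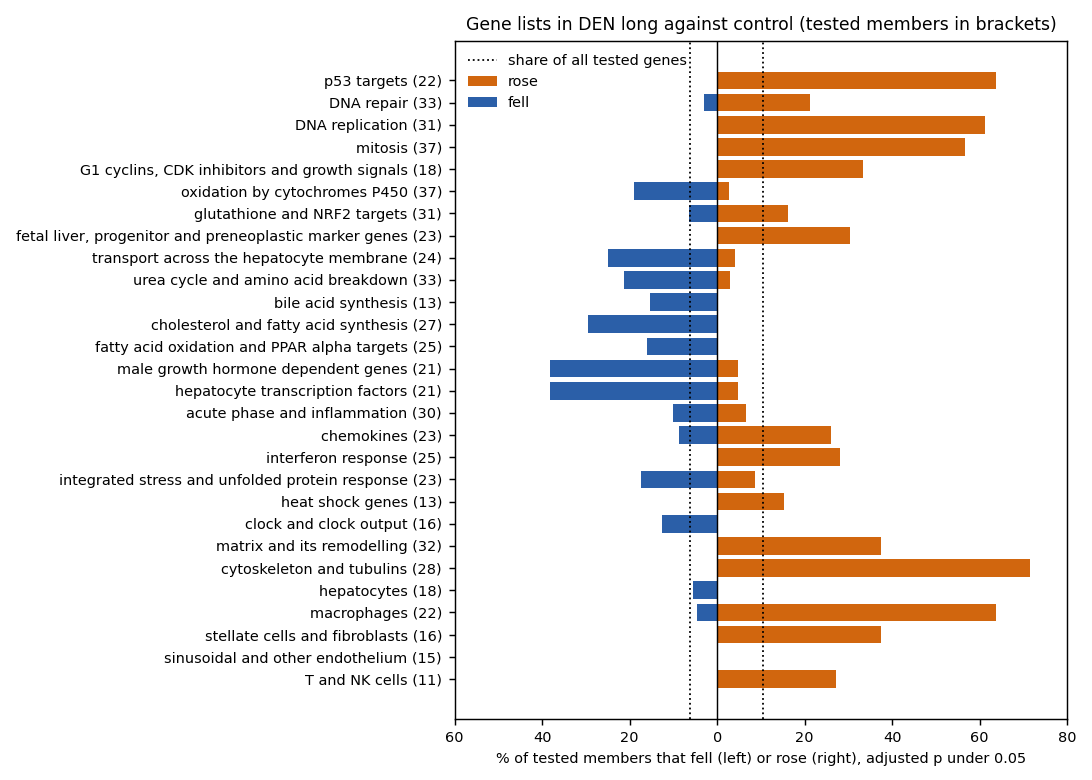
Share of the tested members of each list with at least 10 of them (number in brackets) that rose (right) or fell (left) in DEN long against control at an adjusted p under 0.05; dotted lines mark the shares over all tested genes, 10.4% and 6.31%. Cytoskeleton, p53 target and macrophage lists reach furthest to the right, and growth hormone dependent genes and hepatocyte transcription factors furthest to the left; 21 mitotic genes rose, and 4 did without DEN long rat 3.

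Direct comparison with DEN short asked where repeated dosing differed from a single dose at 3 h. The number of doses and the time since dosing differ together here and cannot be told apart, and the comparison shares its DEN long rats with the one against control. In all, 3330 genes (30.3%) passed, 18.6% higher and 11.7% lower, and 1969 without DEN short 3. Macrophage markers were higher in 18 of 22 members and lower in 1, T and NK markers higher in 8 of 11 and replication genes in 18 of 31. Matrix genes were higher in 17 of 32 members and stellate cell markers in 12 of 16, or 11 and 5 without DEN short 3. Mitotic genes were higher in 16 of 37, or 7 without DEN short 3. Hepatocyte transcription factors were lower in 9 of 21 members, or 2 without DEN short 3. The DEN short rats themselves differed from control. Their median member stood at -0.36 for macrophage, -0.19 for T and NK and -0.27 for stellate cell markers. For matrix, replication and mitotic genes and hepatocyte transcription factors it stood at -0.17, 0.07, 0.05 and -0.08. The differences between the 2 DEN groups therefore contain the changes of both. The largest differences were those of Adam8 (5.53), Gpnmb (4.44), Bcl2a1, an inhibitor of apoptosis in leukocytes (3.05), and Fabp4 (2.84) on the high side and Onecut1 (-4.54), Sds (-4.00) and Slc25a30 (-3.05) on the low side.

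Against 2-AAF long, 3419 genes (31.1%) passed, 1817 (16.5%) higher and 1602 (14.6%) lower in DEN long. With the spread estimated in these 2 groups alone 940 were higher and 326 lower. The 2-AAF long rats themselves differed from the same control rats, with 32.1% of all genes passing (16.1% lower in 2-AAF long): 27 of 37 mitotic genes fell (median -0.73), as did 16 of 32 matrix genes, 12 of 25 interferon response genes and 15 of 22 macrophage markers, and 24 of 31 glutathione and NRF2 genes rose. The differences between the 2 treated groups below therefore contain the changes of both. Mitotic genes were higher in DEN long in 36 of 37 members, and in 33 to 36 with 1 rat left out. Ccna2 was 3.54 higher (adjusted p = 1.6e-09), Mki67 3.08 and Mcm6 3.06. Matrix genes were higher in 25 of 32 members, interferon response genes in 18 of 25 and macrophage markers in 17 of 22. Gpnmb was 3.78 higher and Aldh1b1, a mitochondrial aldehyde dehydrogenase, 4.04. Lower in DEN long were 21 of 31 glutathione and NRF2 genes (12 with the compared groups alone), among them Nqo1 (-1.34), and also Ephx2 (-2.64) and Cyp1a2 (-1.94).

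Against 3MeDAB long, 5422 genes (49.3%) passed, 1822 (16.6%) higher and 3600 (32.7%) lower in DEN long. With quantile normalization of all arrays the split was 2423 higher and 2703 lower, and the median difference moved from -0.09 to 0.01, so the balance of directions depends on scaling. The 3MeDAB long rats also differed from the same control rats, with 53.6% of all genes passing (35.9% higher and 17.7% lower in 3MeDAB long): 16 of 22 p53 targets rose (median 1.35) and 12 of 37 mitotic genes fell, and falls were counted for 21 of 27 genes of cholesterol and fatty acid synthesis (median -1.16), 17 of 21 growth hormone dependent genes (median -1.76), 11 of 13 of bile acid synthesis, 19 of 37 P450 genes and 11 of 18 hepatocyte markers. Targets of p53 were lower in DEN long in 13 of 22 members and higher in 0, with Mdm2 at -1.25 and Fas at -1.50; 16 of 33 repair genes and 20 of 31 glutathione and NRF2 genes were lower, Srxn1 by 2.39. Mitotic genes were higher in 32 of 37 members (27 to 33 with 1 rat left out) and lower in 0. Against control, DEN long had falls in 8 of 27 genes of cholesterol and fatty acid synthesis and 8 of 21 growth hormone dependent genes. Falls were also counted for 2 of 13 genes of bile acid synthesis, 7 of 37 P450 genes and 1 of 18 hepatocyte markers (6.31% of all genes fell). Higher in DEN long than in 3MeDAB long were, for these lists in the same order, 18 of 27, 16 of 21, 11 of 13, 17 of 37 and 12 of 18 members. Cyp2c11 was 4.34 higher (adjusted p = 2.1e-21) and Obp3 4.26. Under quantile normalization these list counts were 18, 16, 11, 18 and 10. Adam8 differed by 0.08 (adjusted p = 0.77), and 8 of 22 macrophage markers were higher in DEN long (4 without 3MeDAB long 2).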

How the data were processed

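The deposited values are log2 signals. The authors standardized their array scans with RMA, as the design text states without a version. Their 31099 probe sets carry 1 gene symbol in 20832 cases, several in 436 and none in 9831, per the platform annotation; 57 probe sets of array controls were dropped. For each gene, the single-symbol probe set with the highest mean over all arrays was taken (14217 genes), and 11007 genes above the table median (log2 6.03) in at least 2 of 41 arrays were tested. A mean per group (14 groups, 27 residual degrees of freedom) was fitted with limma 3.58.1 in R 4.3.3 (lmFit, eBayes), two-sided, with Benjamini-Hochberg adjustment over all tested genes and a threshold of 0.05. The arrays' number limits the precision. The test has no block. On simulated data with 200 changed genes of 11007, the test of DEN long against control recovered 95% of changes of 1 log2 unit and 100% of 2 units, with 9 false calls. The simulated noise was independent, with 1 spread per gene shared by all groups, as the fit assumes. It therefore does not show how the test behaves where the spread differs between groups or arrays vary together.

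Members and gene lists were chosen with earlier results of these data known. Named genes are the 15 largest rises and falls without overlap between rats, up to 4 called members of each list and direction, defining markers, Cyp2e1 and Mgmt, and the 4 highest and lowest genes of each direct comparison; further members named for their role, Dbp and Bmal1 among them, were chosen after their values were seen. Alternatives were no filter, a stricter filter, the mean of probe sets, trended robust variance, quantile normalization, a fit to fewer groups, rats left out in turn, the replicate number as a block and, chosen after seeing the data, both arrays that stand apart left out. Promoters are RefSeq's (GRCr8). Figures were drawn with matplotlib 3.10.9.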

Additional observations from a re-analysis of the deposited data

Results flagged for a closer look

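Of the 30 genes with the largest changes against control, 23 passed the limma test of the difference between DEN long and DEN short (adjusted p under 0.05). They were chosen for extreme values in the same DEN long rats that enter this test, so their number is a description and nothing is read from it. The largest differences were Adam8 (5.53 higher in DEN long) and Onecut1 (-4.54).

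Genes higher in DEN long than in DEN short included the macrophage genes Gpnmb (4.44), Fabp4 (2.84) and Mmp12 (2.72) and the interferon-induced Gbp4 (2.72). The laminin chain Lama5 (2.50), the repressor Bcl6 (2.59), the end-joining factor Nhej1 (2.12), Ces2c (1.98) and Vxn (1.57) were higher as well. Atf3 was lower (-2.90), although both schedules had it above control.

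Genes of hepatocyte metabolism were lower in DEN long: the amino acid enzymes Sds (-4.00) and Oat (-2.59), the carriers Slc25a30 (-3.05) and Slc13a3 (-2.48), Ephx2 (-2.19) and Fmo1 (-1.80). The growth hormone dependent genes Stac3 (-2.54), Cish (-2.53) and Socs2 (-2.29) were lower too, as were Nupr1 (-2.34) and Sez6 (-1.53).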

How the results depend on the processing

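Of 135 genes named by rule against control, 0 changed direction under the alternatives in which they were tested (120 of them under the stricter filter). Nearly all were named because they passed in these same rats, many of them without overlap between groups. Leaving rats out cannot reverse a gene without overlap, so this count is a description and nothing is read from it. The median difference from 3MeDAB long over all genes went from -0.09 to 0.01 with quantile normalization. Without both arrays that stand apart, 972 genes passed against control (677 higher, 295 lower), with 2 rats in each group. With 1 rat left out, 1298 to 1485 genes passed against control, with 444 (without DEN long 3) to 524 lower. Against DEN short the range was 1969 (without DEN short 3) to 2955, with 1283 to 1900 higher and 686 to 1189 lower. Lower in DEN long than in 2-AAF long were 1001 (without 2-AAF long 3) to 2025 genes. With the spread estimated in the compared groups alone, 1266 genes passed against 2-AAF long (940 higher, 326 lower), and the cause was not tested. With the genotoxic set alone, 3 interferon response genes rose, and 3 P450 genes, 3 transporters, 4 urea cycle and amino acid genes and 5 cholesterol and fatty acid synthesis genes fell. The other counts over all genes stayed within 1.5 times the main ones.

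Rats with the same replicate number did not deviate together (correlations of -0.054, -0.021 and -0.054 between DEN long and control), so the numbers do not pair them. With the replicate number as a block, 1364 genes passed against control, 2669 against DEN short, 2574 against 2-AAF long and 4796 against 3MeDAB long; 15 mitotic and 4 interferon response genes rose, and 4 P450 genes, 3 transporters and 4 urea cycle and amino acid genes fell. Of the 135 genes, 11 did not pass with the block, 26 without DEN long 3, 18 without control 1 and 49 without both. Depth is not defined for arrays, and the number of rats limits the precision; genes below the filter were not tested.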
